A study of Mus musculus with 12 samples.

Results

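The genes described here are 10 members of the EGF and neuregulin signaling system, 7 ligands (Hbegf, Areg, Btc, Tgfa, Nrg1, Nrg2 and Nrg3) and 3 receptors (Egfr, Erbb3 and Erbb4). They were taken by name from the 41091 genes of the deposited count tables, and each matched 1 gene ID. All 10 are protein-coding, and their positions are those of the whole gene in GENCODE M21 on the GRCm38 assembly. Expression was measured by RNA-seq in acute hippocampal mini-slices of wild-type male C57BL/6 mice aged 2 to 3 months, from which the dentate gyrus had been trimmed. Chemical long-term potentiation (LTP) was induced with 50 uM forskolin, which activates adenylyl cyclase and so raises cAMP. After 5 min, 30 mM KCl and 10 mM calcium were added to the forskolin, and the treatment lasted 10 min in all. Control slices were kept for 10 min in vehicle alone (DMSO at 0.2%). All were frozen 1 hr or 3 hr after induction, which gave 4 groups of 3 libraries, LTP and control at each time point. Each animal supplied an LTP and a control library at a time point, and the replicate number names the animal. The labels use animal numbers 1 to 3 at both time points and do not say whether the animals were the same.

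EGF-family ligands are made as membrane-bound precursors, and metalloproteases of the ADAM family release them from the cell surface. Hbegf, Areg, Btc and Tgfa encode ligands of the EGF receptor (Egfr), of which the products of Hbegf and Btc also bind Erbb4. The neuregulins Nrg1, Nrg2 and Nrg3 encode ligands of Erbb3 and Erbb4, or of Erbb4 alone in the case of Nrg3. Bound receptors pair with each other or with Erbb2, a co-receptor without a known ligand, and signal through Ras and MAP kinases and through PI3 kinase and Akt. In the adult hippocampus Erbb4 is known chiefly from GABAergic interneurons, Erbb3 from oligodendrocytes, and Nrg3 from excitatory neurons.

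Library totals ran from 37118382 to 50815001 counts. All 10 members passed the filter on low counts in every comparison, but their depth differed widely, from 6 to 42 counts per library for Areg to between 4077 and 5923 counts for Erbb4. 1 hr control replicate 2, which the study set aside as an outlier of its clustering, is given with the values of each member but was not in the tests. Counts of LTP and control pairs include its pair. Levels are given as CPM, counts that were scaled by library size. The 6 pyramidal neuron markers summed to 2575 to 4013 CPM over the 12 libraries, and the 4 dentate granule cell markers, although the dentate gyrus had been trimmed, to 116 to 224 CPM. These are bulk samples, in which fewer cells of a type and less RNA per cell cannot be told apart. Each time point is treated here as having its own animals, so time after treatment and animal cannot be told apart either.

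Forskolin raises cAMP, and the cAMP response element is the site bound by the CREB transcription factor, so the windows from 250 bases before to 50 bases after each start site were searched for it on both strands. RefSeq (GRCm38.p6) windows were at hand for 6 of the 10 members, Areg, Btc, Tgfa, Egfr, Nrg3 and Erbb4. The first bases after the start site were matched to an annotated transcript for each of these except Tgfa. The palindromic element TGACGTCA was found in the window of 1 of the 6, that of Areg, and in 1.79% of all 32851 windows of this length. Its 5-base core, TGACG or CGTCA, was found in the windows of Areg and Btc and in 20.8% of all windows. The palindrome contains both forms of the core, so the counts overlap. The matches read as follows, 5′ to 3′ on the strand of the gene with the matching letters in capitals, first the palindrome of Areg (chr5:91139527-91139556, plus strand, match from position -61), then a separate core of Areg (chr5:91139471-91139500, plus strand, match from position -115) and the core of Btc (chr5:91403091-91403120, minus strand, match from position -113).
Areg palindrome: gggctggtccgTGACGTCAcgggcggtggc
Areg core: ccacttcctcccgCGTCAgctgggtttttg
Btc core: gaaagaaatgaacCGTCAggtgagacccag
The AP-1 site TGANTCA (7.81% of all windows) and the EGR site GCGNGGGCG (5.55% of all windows) were found in 0 of the 6 windows. A match describes letters in a window and was not tested as a binding site.

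To compare levels between genes, CPM was divided by exonic length in kb (RPKM). On this scale Erbb4 had a mean of 9.51 RPKM over the 12 libraries and a range from 8.24 to 11.2. In the order of these means it was followed by Nrg3 at 8.92 RPKM (7.59 to 10.7), Hbegf at 8.48 RPKM (6.05 to 11.1) and Tgfa at 5.56 RPKM (4.46 to 6.61). Each of these 4 overlapped its neighbour in the order. A gap separated Tgfa from Erbb3 at 2.95 RPKM (2.18 to 3.75), which overlapped Egfr at 2.25 RPKM (2.08 to 2.44), which in turn overlapped Nrg2 at 1.91 RPKM (1.33 to 2.85). A further gap separated Nrg2 from Btc at 0.501 RPKM, Areg at 0.372 RPKM and Nrg1 at 0.301 RPKM, whose ranges overlapped. By exonic length the leading gene differed between time points. Erbb4 had the highest mean in 1 hr control (9.91 RPKM) and 1 hr LTP slices (10.5 RPKM), and Hbegf in 3 hr control (9.12 RPKM) and 3 hr LTP slices (10.6 RPKM). The order also depends on the length used. The study states that only reads in coding sequence were used for expression, and whether the deposited counts cover whole exons was not tested. Per kb of coding length, an alternative added after seeing the data, Hbegf and Tgfa led with 65.7 and 65.2 CPM per kb, followed by Erbb4 at 29.6 and Nrg3 at 28.1, and Areg was the lowest at 0.607. On that scale the leading gene was the same at both time points, Tgfa in the control groups (57.8 and 75.4 CPM per kb at 1 hr and 3 hr) and Hbegf in the LTP groups (58.01 and 81.8 CPM per kb). In both orders Hbegf, Tgfa, Nrg3 and Erbb4 were the 4 highest of the 10 members, and Erbb4 was the highest of the 3 receptors.

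**Figure D1:**
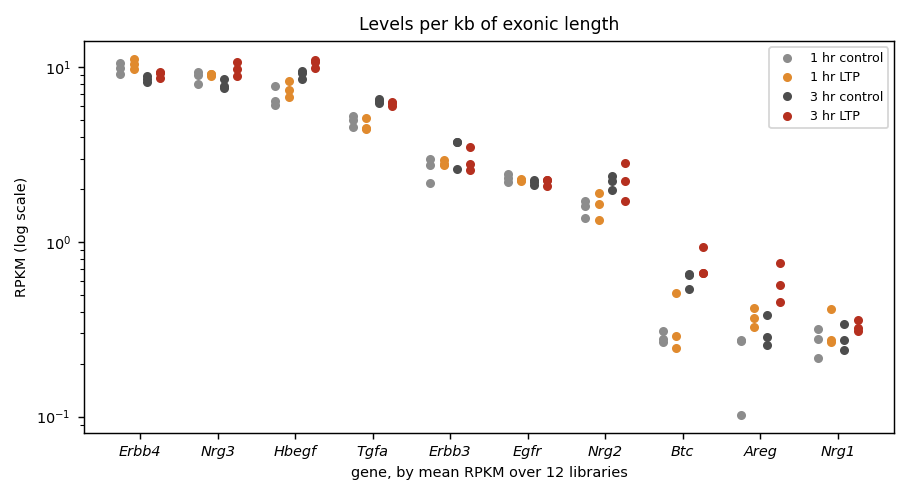
Level of each member in each of the 12 libraries, in RPKM on a log axis, with genes ordered by their mean and points coloured by group. Erbb4, Nrg3, Hbegf and Tgfa lie between 4.46 and 11.2 RPKM, whereas Btc, Areg and Nrg1 lie under 1 RPKM in every library.

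The comparison of LTP with control slices asked whether LTP induction changed the level of these transcripts. A gene was called when its fold change exceeded 1.2 with an adjusted p under 0.1. At 1 hr, 0 of the 10 members were called, where 0.789% of all 17736 genes tested were called (edgeR). By DESeq2 0 were called as well, and 1 member, Hbegf, had an unadjusted p under 0.05 in edgeR. At 3 hr, 2 of the 10 members were called, Areg and Nrg3, both higher in LTP slices, where 6.6% of all 17508 genes were called and 5.07% were called higher. The median log2 fold change of the members was 0.18 at 1 hr and 0.17 at 3 hr, beside -0.00103 and -0.00248 over all genes tested. The 1 hr median moved with single libraries, to 0.0376 without LTP replicate 2, 0.0428 without control replicate 3 and 0.29 without control replicate 1, and was 0.0444 with animal as a block. LTP and control libraries did not overlap for 3 of the 10 members at 1 hr (Hbegf, Areg and Erbb3), against 22.7% of all genes. Both values are for the 5 libraries tested. When control replicate 2 was counted, 1 member, Areg, did not overlap, and the share of all genes was not computed for that setting. At 3 hr, 4 of the 10 did not overlap (Hbegf, Areg, Btc and Nrg3), against 27.1% of all genes.

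**Figure D2:**
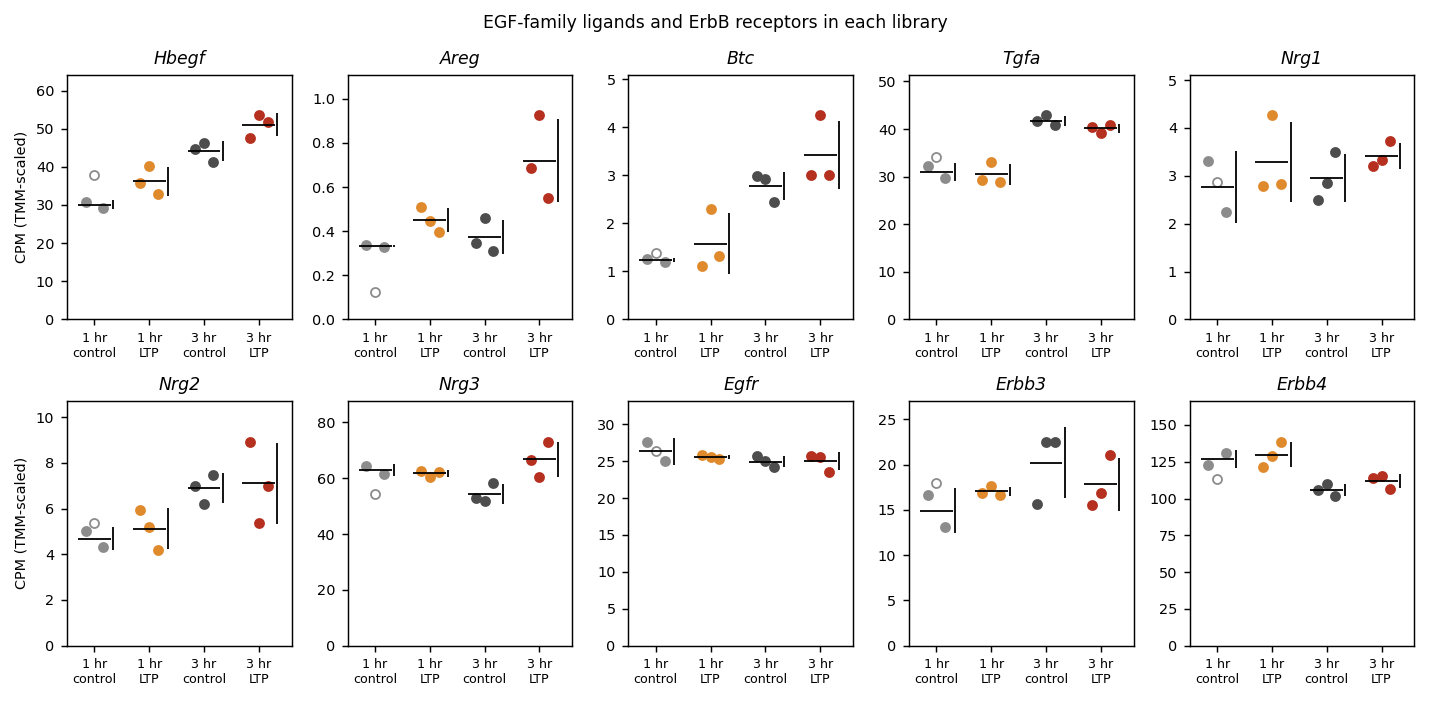
TMM-scaled CPM of each member in each library, by group. Horizontal lines are group means and vertical lines SD, the open circle is 1 hr control replicate 2, which entered neither the mean nor the tests, and each panel has its own axis from 0. The 3 hr LTP libraries of Areg, from 0.550 to 0.925 CPM, lie above the 3 hr controls, from 0.312 to 0.461 CPM, and Hbegf, Btc and Tgfa are higher at 3 hr than at 1 hr in both treatments.

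Among the ligands of Egfr, Areg (amphiregulin, chr5:91139599-91148432) showed the largest fitted difference of the 10 members in LTP slices at both time points, at the lowest depth. At 1 hr this order depended on the libraries. Without LTP replicate 1 the log2 value was 0.56 for Btc and 0.35 for Areg, and without control replicate 1 it was 0.56 for Nrg1 and 0.45 for Areg. At 1 hr, Areg was at 0.335 and 0.330 CPM in control replicates 1 and 3 (0.125 CPM in replicate 2) and at 0.509, 0.445 and 0.398 CPM in the LTP replicates. At 3 hr, Areg was at 0.348, 0.461 and 0.312 CPM in the control replicates and at 0.685, 0.925 and 0.550 CPM in the LTP replicates. These values rest on 16 to 21 counts per control library and 21 to 42 counts per LTP library at 3 hr. Every LTP library was above every control library at each time point, and Areg was higher in LTP than in control in 6 of 6 pairs of libraries from the same animal. The largest log2 ratio of these, 1.28, came from the 1 hr pair with control replicate 2, which was not in the tests. The mean rose from 0.374 ± 0.0778 CPM (SD, n = 3) in 3 hr controls to 0.720 ± 0.190 CPM (SD, n = 3) in 3 hr LTP slices, a fitted log2 fold change of 0.98 (SE 0.281, adjusted p = 0.0958, edgeR), or 1.97-fold. This call stood close to the threshold and was lost in 7 of 12 alternative analyses, with adjusted p from 0.0619 to 0.285 and log2 fold changes from 0.76 to 1.15. Among these were DESeq2 (adjusted p = 0.138), scaling to total counts (adjusted p = 0.106), and leaving out any 1 of LTP replicates 1 and 2 or control replicates 1, 2 and 3 (adjusted p from 0.135 to 0.285). At 1 hr the log2 fold change was 0.45 (SE 0.433, adjusted p = 0.94), and with 1 hr control replicate 2 included it was 0.81 (adjusted p = 0.658).

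Hbegf (heparin-binding EGF-like growth factor, chr18:36504927-36515805) was higher in LTP than in control slices in all 6 pairs, by a smaller factor and at far greater depth. At 1 hr, Hbegf was at 30.9 and 29.2 CPM in control replicates 1 and 3 (37.9 CPM in replicate 2) and at 35.7, 40.2 and 32.8 CPM in the LTP replicates. At 3 hr it was at 44.7, 46.3 and 41.2 CPM in the controls and at 47.7, 53.5 and 51.8 CPM in the LTP slices. The groups did not overlap at 3 hr, and at 1 hr they did not overlap unless control replicate 2 was counted. The log2 fold change of 0.28 at 1 hr (SE 0.0953, adjusted p = 0.462) and of 0.23 at 3 hr (SE 0.0725, adjusted p = 0.119) did not pass the test. At 1 hr it passed without LTP replicate 3 (log2 fold change 0.35, adjusted p = 0.0854), whereas with all 6 libraries it was 0.16 (adjusted p = 0.718). Over the 12 alternatives at 3 hr the adjusted p ran from 0.0752 to 0.293 without a call, since the fold change stayed under 1.2 where the adjusted p was under 0.1. Across animals the log2 ratio of LTP to control was 0.21, 0.08 and 0.16 at 1 hr and 0.09, 0.21 and 0.33 at 3 hr.

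Btc (betacellulin, chr5:91357261-91402994) lies 209 kb from Areg, on the opposite strand. Btc was at 1.26 and 1.203 CPM in 1 hr control replicates 1 and 3 (1.39 CPM in replicate 2) and at 1.11, 2.30 and 1.31 CPM in the 1 hr LTP slices, where replicate 2 stood apart from the other two. At 3 hr it was at 2.98, 2.92 and 2.44 CPM in the controls and at 3.02, 4.25 and 3.01 CPM in the LTP slices, again with replicate 2 the highest. The log2 fold change in LTP slices was 0.36 at 1 hr (SE 0.32, adjusted p = 0.933) and 0.33 at 3 hr (SE 0.168, adjusted p = 0.314), neither past the test. At 1 hr it was -0.02 with animal as a block and -0.01 without LTP replicate 2, so its direction rested on that library, and 0.56 without LTP replicate 1. The 3 hr value was 0.15 when LTP replicate 2 was left out. Among the 12 libraries the pyramidal neuron marker sum was lowest in 1 hr LTP replicate 2 (2575 CPM), followed by 3 hr LTP replicate 2 (2651 CPM). The 6 oligodendrocyte markers summed to 8107 and 9188 CPM there, and to 9129 CPM in 3 hr control replicate 2, where Btc was at 2.92 CPM. The part of these cells in the Btc values was not tested.

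Tgfa (transforming growth factor alpha, chr6:86195223-86275719) was at 32.3 and 29.6 CPM in 1 hr control replicates 1 and 3 (34.1 CPM in replicate 2) and at 29.4, 33.1 and 28.9 CPM in the 1 hr LTP slices. At 3 hr it was at 41.7, 42.9 and 40.8 CPM in the controls and at 40.4, 39.2 and 40.9 CPM in the LTP slices. LTP and control libraries overlapped at both time points. The log2 fold change was -0.01 at 1 hr (SE 0.0902, adjusted p = 0.997) and -0.04 at 3 hr (SE 0.0624, adjusted p = 0.795), and Tgfa was higher in LTP slices in 1 of 6 pairs. Of its exonic bases, 1.82% are shared with an antisense gene, Gm43917, and the use of strand in counting is not given in the sources used here.

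Among the neuregulins, Nrg3 (chr14:38368952-39473088) was called higher in LTP slices at 3 hr. Nrg3 was at 53.1, 51.8 and 58.3 CPM in the 3 hr control replicates and at 66.6, 60.5 and 73.1 CPM in the 3 hr LTP replicates, so that the groups did not overlap and each animal was higher in LTP. The mean rose from 54.4 ± 3.44 CPM to 66.7 ± 6.30 CPM (SD, n = 3 each), a log2 fold change of 0.32 (SE 0.0872, adjusted p = 0.0868, edgeR). At 1 hr Nrg3 was at 64.5 and 61.5 CPM in control replicates 1 and 3 (54.5 CPM in replicate 2) and at 62.7, 60.4 and 62.3 CPM in the LTP slices, a log2 fold change of -0.01 (SE 0.0713, adjusted p = 0.996). The 3 hr LTP libraries thus reached about the level of the 1 hr libraries, whereas the 3 hr controls lay below the LTP and control libraries that were tested at 1 hr. The 3 hr call held under DESeq2 (adjusted p = 0.0336), with animal as a block (adjusted p = 0.0207) and without LTP replicate 2 (adjusted p = 0.016), and was lost on leaving out any other of the 6 libraries (adjusted p from 0.128 to 0.333). The summed pyramidal neuron markers moved with Nrg3 among the LTP libraries, at 3384, 2651 and 4013 CPM in 3 hr LTP replicates 1, 2 and 3 beside 2978, 3062 and 3074 CPM in the controls. In LTP replicate 2, where the marker sum was below all 3 controls, Nrg3 was still above all 3 controls, and the part of these cells in the result was not tested.

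Nrg1 (chr8:31814551-32884029) and Nrg2 (chr18:36017652-36197380) varied between replicates by about as much as between treatments. Nrg1 was at 3.30 and 2.24 CPM in 1 hr control replicates 1 and 3 (2.87 CPM in replicate 2), at 2.78, 4.26 and 2.83 CPM in the 1 hr LTP slices, at 2.50, 2.85 and 3.49 CPM in the 3 hr controls and at 3.20, 3.33 and 3.72 CPM in the 3 hr LTP slices. LTP exceeded control in 5 of 6 pairs, but the groups overlapped at both time points, and the log2 fold changes of 0.26 (SE 0.238, adjusted p = 0.936) and 0.23 (SE 0.154, adjusted p = 0.446) did not pass the test. The 1 hr value ran from 0.00907 when control replicate 3 was left out to 0.56 when control replicate 1 was, and was 0.0471 with animal as a block. The 3 hr value ran from 0.12 when control replicate 1 was left out to 0.38 when control replicate 3 was. Of the exonic bases of Nrg1, 4.66% are shared with an antisense gene, Gm26578. Nrg2 was at 5.03 and 4.32 CPM in 1 hr control replicates 1 and 3 (5.38 CPM in replicate 2), at 5.96, 5.20 and 4.17 CPM in the 1 hr LTP slices, at 7.01, 6.19 and 7.48 CPM in the 3 hr controls and at 8.93, 5.37 and 6.99 CPM in the 3 hr LTP slices. Its log2 fold change in LTP slices was 0.14 at 1 hr (SE 0.175, adjusted p = 0.956) and 0.06 at 3 hr (SE 0.174, adjusted p = 0.882). LTP exceeded control in 2 of 6 pairs. The 1 hr value ran from 0.0198 to 0.28 over the alternatives, the lowest without LTP replicate 1, and the 3 hr LTP replicates alone spanned a wider range than all 3 controls. In replicates 1, 2 and 3 the dentate granule cell marker sums were 197, 151 and 116 CPM in 1 hr LTP and 224, 132 and 139 CPM in 3 hr LTP slices. In the controls they were 170, 172 and 153 CPM at 1 hr and 175, 144 and 174 CPM at 3 hr. The part of these cells in the Nrg2 values was not tested. Nrg2 lies 308 kb from Hbegf on the same strand.

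None of the 3 receptors was called in LTP slices at either time point, and 0 of the 3 had an unadjusted p under 0.05 in edgeR at 1 hr or at 3 hr. Egfr (chr11:16752203-16918158), the receptor of the EGF-like ligands, was the steadiest member, from 23.6 to 27.6 CPM over the 12 libraries. It was at 27.6 and 25.0 CPM in 1 hr control replicates 1 and 3 (26.4 CPM in replicate 2), at 25.9, 25.5 and 25.2 CPM in the 1 hr LTP slices, at 25.7, 24.9 and 24.1 CPM in the 3 hr controls and at 25.7, 25.6 and 23.6 CPM in the 3 hr LTP slices. The log2 fold change was -0.03 (SE 0.0853, adjusted p = 0.987) at 1 hr and 0.02 (SE 0.0707, adjusted p = 0.89) at 3 hr, and the LTP and control libraries overlapped at both.

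Erbb4 (chr1:68032186-69108059), the neuregulin receptor of interneurons, was at 123 and 131 CPM in 1 hr control replicates 1 and 3 (113 CPM in replicate 2) and at 122, 129 and 139 CPM in the 1 hr LTP slices. At 3 hr it was at 106, 110 and 102 CPM in the controls and at 114, 115 and 107 CPM in the LTP slices. LTP libraries overlapped control libraries at both time points, although Erbb4 was higher in LTP slices in 5 of 6 pairs. The log2 fold change was 0.04 (SE 0.0742, adjusted p = 0.965) at 1 hr and 0.10 (SE 0.0573, adjusted p = 0.352) at 3 hr. The 6 GABAergic interneuron markers, of which none were called in LTP slices at either time point, summed to between 462 and 510 CPM in 3 hr controls and between 502 and 512 CPM in 3 hr LTP slices.

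Erbb3 (chr10:128567523-128589652), a receptor with little kinase activity of its own, was at 16.7 and 13.1 CPM in 1 hr control replicates 1 and 3 (17.9 CPM in replicate 2) and at 16.9, 17.7 and 16.7 CPM in the 1 hr LTP slices. At 3 hr it was at 15.7, 22.5 and 22.6 CPM in the controls and at 15.5, 16.8 and 21.1 CPM in the LTP slices. The log2 fold change was 0.21 at 1 hr (SE 0.112, adjusted p = 0.808) and -0.16 at 3 hr (SE 0.162, adjusted p = 0.611), with LTP below control in all 3 pairs at 3 hr. The 1 hr value was 0.0485 without control replicate 3 and 0.39 without control replicate 1, and with control replicate 2 counted the groups overlapped and it was 0.12. The 3 hr value ran from -0.32, with control replicate 1 left out, to -0.0699, with control replicate 3 left out, and was -0.0733 when LTP replicate 1 was left out. The 6 oligodendrocyte markers, none of which were called in LTP slices, summed to 7076, 5926 and 5631 CPM in 1 hr control replicates 1, 2 and 3 and to 6829 to 8107 CPM in 1 hr LTP slices. The lowest sum and the lowest Erbb3 value were in the same library, 1 hr control replicate 3. At 3 hr the sums of controls (7479 to 9129 CPM) and LTP slices (7424 to 9188 CPM) overlapped, and the part of these cells in the Erbb3 values was not tested.

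Whether the LTP effect differed between 3 hr and 1 hr was tested in a model of all 4 groups, and 0 of the 10 members were called, where 0.0592% of 18584 genes were called (adjusted p under 0.1, no fold minimum). With edgeR, 1 member, Nrg3, had an unadjusted p under 0.05, and DESeq2 called 0 members. The difference for Nrg3 was 0.34 on the log2 scale (SE 0.115, adjusted p = 0.565), that for Areg 0.53 (SE 0.456, adjusted p = 0.925) and that for Erbb3 -0.37 (SE 0.221, adjusted p = 0.864). The Areg difference was 0.16 with all 12 libraries and 0.29 with 3 hr LTP replicate 2 left out, and the Erbb3 difference ran from -0.58, with 1 hr control replicate 1 left out, to -0.24, with 1 hr control replicate 3 left out. The effects at 3 hr in Areg and Nrg3 were therefore not shown to differ from those at 1 hr.

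**Figure D3:**
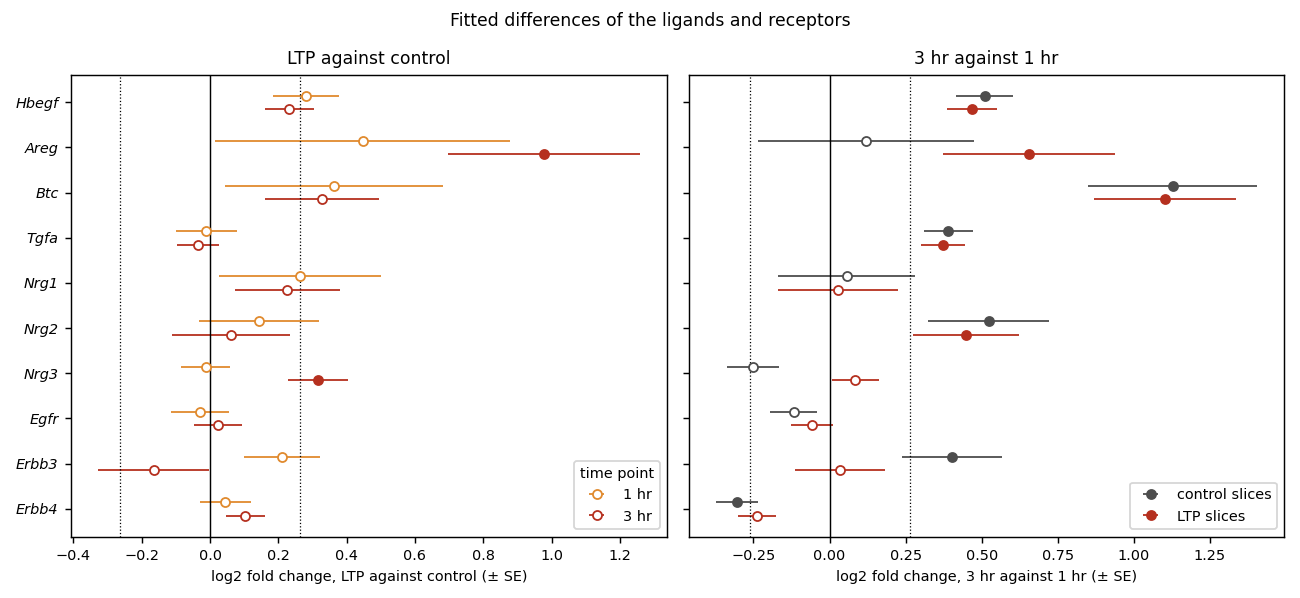
Fitted log2 fold change of each member with its SE, for LTP against control at 1 hr and 3 hr (left) and for 3 hr against 1 hr in control and LTP slices (right). Filled points were called, and dotted lines mark a fold change of 1.2 in each direction. Areg (0.98) and Nrg3 (0.32) are the only filled points on the left, whereas Hbegf, Btc, Tgfa and Nrg2 are filled in both series on the right.

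More members, and more genes of the whole table, were called between time points than between treatments. In control slices, 6 of the 10 members were called between 3 hr and 1 hr, 5 higher and 1 lower at 3 hr, where 32.8% of 18584 genes were called, 16.1% higher and 16.8% lower. In LTP slices 5 of the 10 were called, all higher at 3 hr, where 35.9% of genes were called and 18.6% were called higher. The groups did not overlap for 6 of the 10 members in control slices (60.6% of all genes) and for 5 of the 10 in LTP slices (44.7% of all genes). The median log2 fold change of the members was 0.26 in control and 0.23 in LTP slices, beside -0.0186 and 9.52e-05 over all genes tested.

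Btc showed the largest rise with time, of 1.13 on the log2 scale in control slices (SE 0.278, adjusted p = 0.008) and of 1.10 in LTP slices (SE 0.235, adjusted p = 0.0027), from 1.23 ± 0.0426 CPM (SD, n = 2) in 1 hr to 2.78 ± 0.299 CPM (SD, n = 3) in 3 hr controls. Hbegf rose by 0.51 in control (SE 0.0938, adjusted p = 0.00147) and by 0.47 in LTP slices (SE 0.0825, adjusted p = 0.000821). Tgfa rose by 0.39 in control (SE 0.0807, adjusted p = 0.00295) and by 0.37 in LTP slices (SE 0.0717, adjusted p = 0.00143). These 3 ligands of Egfr kept their calls in every alternative analysis of both time comparisons. Areg, the other ligand of Egfr, did not pass in control slices (0.12, SE 0.355, adjusted p = 0.826, and 0.51 with all 12 libraries), and its call in LTP slices (0.66, SE 0.283, adjusted p = 0.0846) was lost in 7 of 11 alternatives, with adjusted p from 0.0692 to 0.295 over all 11. Those were DESeq2, no filter on low counts, all 12 libraries, and leaving out 1 hr LTP replicate 2 or 3 or 3 hr LTP replicate 1 or 2.

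Of the neuregulins, Nrg2 rose with time by 0.52 in control (SE 0.198, adjusted p = 0.0595) and by 0.45 in LTP slices (SE 0.175, adjusted p = 0.0585). Its call was lost in control slices without 1 hr control replicate 3 (adjusted p = 0.259) or 3 hr control replicate 3 (adjusted p = 0.146), and in LTP slices without 1 hr LTP replicate 3 (adjusted p = 0.176) or 3 hr LTP replicate 1 (log2 fold change 0.25, adjusted p = 0.291). The dentate granule cell marker sums of 1 hr LTP (116 to 197 CPM) and 3 hr LTP slices (132 to 224 CPM) overlapped. The lowest was in 1 hr LTP replicate 3 and the highest in 3 hr LTP replicate 1. The part of these cells in the Nrg2 rise was not tested. Nrg3 was lower in 3 hr than in 1 hr controls by a log2 fold change of -0.25 (SE 0.0854, adjusted p = 0.0382), which is under the fold minimum, and passed in 1 of 10 alternatives, without 3 hr control replicate 3 (-0.29, adjusted p = 0.0359). It was -0.15 with all 12 libraries (adjusted p = 0.194) and -0.18 without 1 hr control replicate 1 (adjusted p = 0.284). In LTP slices the value for Nrg3 was 0.08 (SE 0.0767, adjusted p = 0.416). Nrg1 was at 0.06 (SE 0.225, adjusted p = 0.873) and 0.03 (SE 0.198, adjusted p = 0.932), without a call.

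The receptors did not move together with time. Erbb4 was lower in 3 hr than in 1 hr control slices, with a log2 fold change of -0.30 (SE 0.0698, adjusted p = 0.00551), and in LTP slices the value was -0.24 (SE 0.0629, adjusted p = 0.00964), under the fold minimum. The control call of Erbb4 was lost with all 12 libraries (-0.22, adjusted p = 0.0322), where the fold was too small, and without 1 hr control replicate 3 (-0.22, adjusted p = 0.114) or 3 hr control replicate 3 (-0.26, adjusted p = 0.0304). The GABAergic marker sums of 1 hr controls (442 to 514 CPM) and 3 hr controls (462 to 510 CPM) overlapped. In control slices 1 of the 6 markers was called lower (Gad2, log2 fold change -0.41, adjusted p = 0.00381) and 1 higher (Slc32a1, 0.55, adjusted p = 0.00835). In LTP slices 2 of the 6 were called lower (Gad2 and Pvalb) and 0 higher. The part of these cells in the Erbb4 result was not tested. Erbb3 rose by 0.40 in control slices (SE 0.166, adjusted p = 0.0801) and was at 0.03 in LTP slices (SE 0.147, adjusted p = 0.878). The Erbb3 call was lost with all 12 libraries (adjusted p = 0.104) and without 1 hr control replicate 3 (adjusted p = 0.395), 3 hr control replicate 2 (adjusted p = 0.185) or 3 hr control replicate 3 (adjusted p = 0.207). The oligodendrocyte marker sum was 5631 to 7076 CPM in 1 hr controls and 7479 to 9129 CPM in 3 hr controls, with 2 of 6 markers called higher (Mbp and Mag). The same 2 markers were called higher in LTP slices, where Erbb3 was not called. The part of these cells in the Erbb3 result was not tested. Egfr was at -0.12 in control slices (SE 0.0772, adjusted p = 0.266, and -0.00679 without 1 hr control replicate 1) and in LTP slices at -0.06 (SE 0.0694, adjusted p = 0.544), without a call. The time comparison in controls, the time comparison in LTP slices and the LTP comparisons share libraries, so their values are not independent of each other.

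The rest of the pathway was followed in a list of 53 genes outside the members, of which 51 were tested. The ligand genes Ereg (0 to 8 counts per library) and Epgn (1 to 10 counts per library), which lie beside Areg on chromosome 5, were too low to test. At 1 hr, 2 of the 51 rose in LTP slices and none fell, where 0.789% of all genes were called, and at 3 hr 7 rose and 1 fell, where 6.6% of all genes were called and 5.07% were called higher. The median log2 fold change of the 51 was 0.03 at 1 hr and 0.03 at 3 hr. Of the remaining ligands and the co-receptor, Egf, Nrg4 and Erbb2, 0 of 3 were called at either time point.

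Of the 13 feedback inhibitors of receptor signaling, 2 rose at 1 hr (0.789% of all genes called) and 4 at 3 hr (6.6% of all genes called), with a median log2 fold change of 0.10 and 0.19. Errfi1, whose product binds the kinase domain of Egfr and blocks it, was at 140 and 130 CPM in 1 hr control replicates 1 and 3 (142 CPM in replicate 2) and at 245, 241 and 220 CPM in the 1 hr LTP slices. At 3 hr Errfi1 was at 137, 138 and 129 CPM in the controls and at 179, 224 and 177 CPM in the LTP slices. It rose by 0.82 on the log2 scale at 1 hr (SE 0.0741, adjusted p = 1.77e-05) and by 0.54 at 3 hr (SE 0.0897, adjusted p = 0.018), with no overlap of the groups and in every alternative analysis.

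Spry2, a Sprouty protein that restrains Ras and MAP kinase signaling, was at 60.6 and 67.2 CPM in 1 hr control replicates 1 and 3 (63.3 CPM in replicate 2) and at 88.5, 83.6 and 91.2 CPM in the 1 hr LTP slices. At 3 hr it was at 89.4, 89.8 and 85.3 CPM in the controls and at 108, 115 and 120 CPM in the LTP slices. Spry2 rose by 0.47 at 1 hr (SE 0.0757, adjusted p = 0.00599), a call lost without 1 hr control replicate 1 (adjusted p = 0.251), and by 0.40 at 3 hr (SE 0.0617, adjusted p = 0.0137), a call kept in every alternative. At 3 hr its relative Spry4 rose by 0.52 (SE 0.126, adjusted p = 0.0587), and Cbl, a ubiquitin ligase that sends Egfr to degradation, rose by 0.49 (SE 0.0857, adjusted p = 0.0222). The call of Spry4 was lost without LTP replicate 1 or any 1 of the 3 control replicates, and that of Cbl without control replicate 1 or 2.

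Of the 8 genes of ligand processing, none were called at 1 hr (0.789% of all genes), and 2 rose and 1 fell at 3 hr (6.6% of all genes called, 5.07% higher). Adam12, a metalloprotease that releases Hbegf protein, was at 4.05, 4.68 and 4.48 CPM in the 3 hr controls and at 6.46, 6.34 and 6.08 CPM in the LTP slices, a log2 fold change of 0.54 (SE 0.0994, adjusted p = 0.0259). Adam19, which acts on neuregulins, rose by 0.37 (SE 0.103, adjusted p = 0.0875), and Rhbdf1, a partner of the metalloprotease Adam17, fell by 0.38 (SE 0.108, adjusted p = 0.0926). Each of these 3 calls was lost on leaving out 1 library, for Adam12 any 1 of LTP replicate 1 and control replicates 1 and 2. For Adam19 these were LTP replicates 1 and 3 and all 3 controls, and for Rhbdf1 LTP replicates 1 and 2 and all 3 controls. Adam10 and Adam17, the main shedding enzymes of the EGF-like ligands, were not called at 3 hr (log2 fold changes of -0.03 and 0.07).

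Of the 10 adaptors and proximal signaling genes, 1 rose at 3 hr, Sos1, which activates Ras, a share near the 6.6% of all genes called. Sos1 was at 43.8, 43.3 and 41.7 CPM in the 3 hr controls and at 58.2, 58.0 and 60.9 CPM in the LTP slices, a log2 fold change of 0.48 (SE 0.0601, adjusted p = 0.00551) that was called in all 12 alternatives. None of the 9 genes of Ras and MAP kinases and none of the 8 of PI3 kinase and Akt were called at either time point, with 2 and 0 of them at an unadjusted p under 0.05 in edgeR at 3 hr. The LTP effect did not differ between the time points past the threshold for any of the 51 (0 called), although for 4 the unadjusted p was under 0.05 in edgeR. Between 3 hr and 1 hr, 18 of the 51 were called in control slices, 12 higher and 6 lower, and 17 in LTP slices, 13 higher and 4 lower, shares near those of all genes (32.8% in control and 35.9% in LTP slices).

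**Figure D4:**
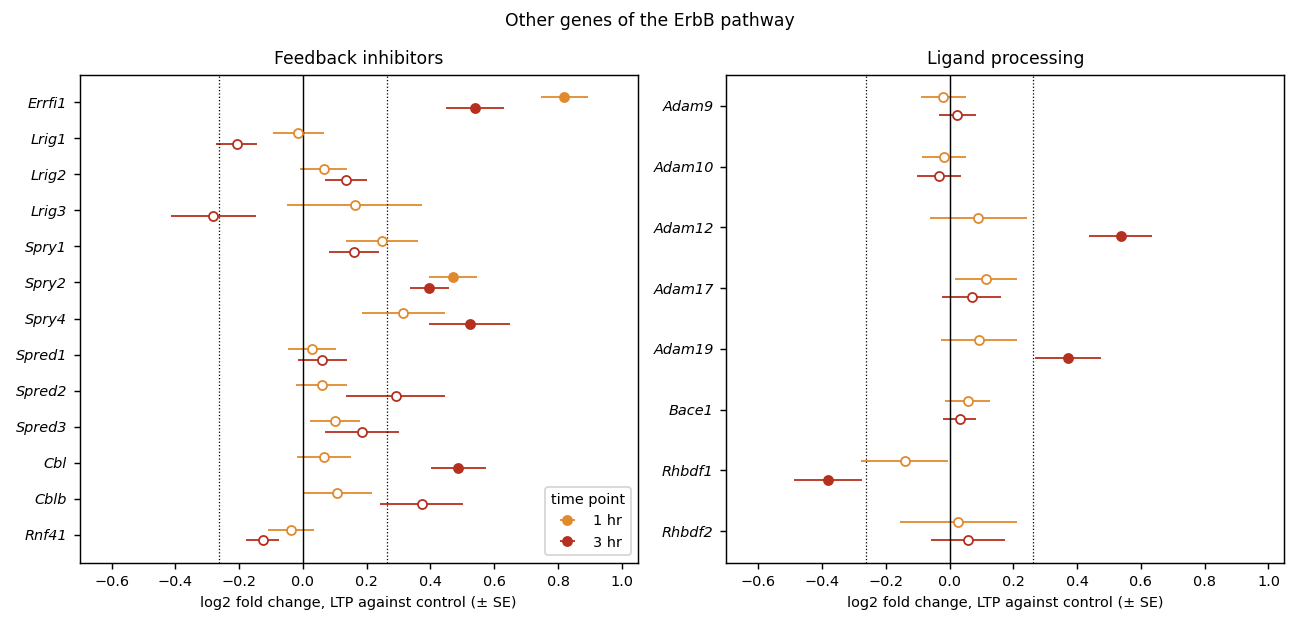
Fitted log2 fold change with SE in LTP against control slices at 1 hr and 3 hr, for the 13 feedback inhibitors (left) and the 8 genes of ligand processing (right). Filled points were called, and dotted lines mark a fold change of 1.2 in each direction. Errfi1 and Spry2 are filled at both time points, and Spry4, Cbl, Adam12, Adam19 and Rhbdf1 at 3 hr.

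For the 2 members called in LTP slices, the genes with the most similar pattern were sought by Pearson correlation of log2 CPM over the 12 libraries. For Areg, among 14184 genes whose mean was 1 CPM or more, these were Arih1 (r = 0.94), Zfp655 (r = 0.91) and Homer1 (r = 0.91), the last a gene of the postsynaptic scaffold. For Nrg3 they were Zbtb20, Tanc2 and Erc1, each with r = 0.93. The 12 points share the 2 time points and 2 treatments, so these values describe a likeness of profile. By the methods of the study, libraries were made from samples in which qPCR showed a rise of Arc and of the short Homer1 isoform after LTP. The profile of Homer1 is therefore not independent of how the samples were chosen.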

How the data were processed

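The members were taken by name, and the members and gene lists were chosen with earlier results of these data known. Raw counts per gene were deposited in a table for each time point. By the methods of the study, the authors depleted ribosomal RNA, made stranded paired-end libraries, aligned reads with STAR to GRCm38/mm10 and counted them with Bioconductor packages. The study's text restricts its expression analysis to coding regions, but the tables also list non-coding genes. Whether counting used strand is not given in the sources used here. Of 41091 gene IDs, 40217 matched GENCODE M21, which gave symbols, positions and exonic lengths, and 874 did not and stayed in the tests.

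Counts were fitted and tested in edgeR 4.0.16 (R 4.3.3, quasi-likelihood F test) after filterByExpr (minimum count 10) and TMM scaling, with Benjamini-Hochberg adjustment over all genes tested. Calls needed a fold change over 1.2 and an adjusted p under 0.1, the former not for the difference between LTP effects. The 1 hr fit held 5 libraries (without control replicate 2) and the 3 hr fit 6. The difference between LTP effects and the time comparisons were fitted to all 4 groups with 11 libraries. P-values measure the spread between these animals. SE is the standard error of the fitted log2 value. CPM was scaled with TMM over the 12 libraries, and 0.1 CPM was added before ratios within an animal were taken. The fit was tested on simulated data.

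The labels pair an LTP and a control library of the same animal. The correlation of their deviations from the group means, across genes, at 1 hr was -0.01 in animal 1, -0.17 in animal 2 and 0.07 in animal 3, and at 3 hr 0.06 in animal 1, -0.01 in animal 2 and 0.25 in animal 3. The study's methods state no animal term, and fits with animal as a block were alternatives. The others were DESeq2 1.42.0, its size factors or total counts in edgeR, no filter on low counts, the 4-group model, all libraries, and leaving out each replicate. Coding length in place of exonic length was added after seeing the data.

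All 10 members were named. Pathway genes were counted over a list and named where called, Ereg, Epgn, Egf, Nrg4, Erbb2, Adam10 and Adam17 beside them. The 3 genes most alike were named for each member called in LTP slices. Marker genes named were called ones of the list concerned, and some marker results are not reported here.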

Additional observations from a re-analysis of the deposited data

How the results depend on the processing

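The 2 calls among the members in LTP slices at 3 hr, Areg and Nrg3, depended on the setting: 1 was called under DESeq2, 1 with total counts, and 0 to 1 when 1 library was left out. At 1 hr the count of 0 became 0 to 1 when 1 library was left out. Over time, 3 to 5 members were called in LTP slices with 1 library left out, where 5473 to 7500 of 18442 to 18532 genes were called. In control slices with a 3 hr control left out, Hbegf, Btc and Tgfa kept their calls, and 4779 to 5894 of 18464 to 18477 genes were called. Nrg2, Erbb3 and Erbb4 each lost their call in some of these fits, and Nrg3 gained one without replicate 3. Of all genes, 140 were called at 1 hr, 347 without the filter and 69 to 344 with 1 library left out. At 3 hr 1155 were called, and 228 to 2170 with 1 library left out, the fewest without control replicate 2 and the most without LTP replicate 2. For the difference between LTP effects 11 were called, 58 under DESeq2, 102 without the filter and 1 to 67 with 1 library left out. The causes were not tested, and leaving out a library also lowers the number of samples.

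All values that changed sign were of a gene in a comparison where that gene was not called. With animal as a replicate block, Btc at 1 hr was at -0.0159, and the differences between LTP effects were 0.0447 for Hbegf, 0.33 for Btc, 0.0483 for Tgfa and 0.20 for Nrg1. The block changed no call of a member, and it could not be fitted to the time comparisons, since animals were taken to belong to 1 time point. With all 6 libraries Nrg3 at 1 hr was at 0.0547, and at 0.0577 with the block. With all 12 libraries the differences were 0.0667 for Hbegf, 0.0243 for Btc and 0.0168 for Tgfa. With 1 library left out, the 1 hr values ran from -0.0149 to 0.56 for Btc, from -0.0793 to 0.0502 for Tgfa, from -0.0465 to 0.0188 for Nrg3, from -0.100 to 0.0407 for Egfr, from -0.00667 to 0.0948 for Erbb4 and from -0.00814 to 0.14 for Cbl. Nrg2 at 3 hr ran from -0.14 to 0.24. The differences ran from -0.11 to 0.0531 for Hbegf, from -0.23 to 0.36 for Btc, from -0.11 to 0.0583 for Tgfa, from -0.36 to 0.21 for Nrg1, from -0.29 to 0.0746 for Nrg2, from -0.0419 to 0.10 for Egfr and from -0.0127 to 0.12 for Erbb4. Over time in control slices, Areg ran from -0.0288 to 0.26 and Nrg1 from -0.16 to 0.40. In LTP slices Nrg1 ran from -0.0548 to 0.28 and Erbb3 from -0.10 to 0.13. Depth limits Areg most, at 6 to 42 counts per library. The order of levels between genes changes with coding in place of exonic length, as the text above gives.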

Other observations

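The members' time comparisons stood beside shifts in microglial and mural cell markers that have no comparison of their own in the text above. The microglial markers P2ry12, Cx3cr1 and Tmem119 were called lower at 3 hr than at 1 hr, with log2 fold changes of -1.44, -0.81 and -0.74 in control slices and of -1.39, -0.75 and -0.61 in LTP slices. Of the 4 mural cell markers, 3 (Acta2, Myh11 and Rgs5) were called lower at 3 hr in control and in LTP slices, with a median log2 fold change over the 4 of -0.73 and -0.36. The mural sum was 131 to 156 CPM in the 1 hr libraries and 105 to 116 CPM in the 3 hr libraries. The part of these cells in the values of Hbegf, Btc and Tgfa was not tested.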
